A study of Mus musculus with 9 samples.

Results

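The genes of GABA synthesis, vesicle loading, uptake and breakdown were followed in ribosome-associated RNA from PV INs of hippocampal CA3/CA2. The 7 genes were listed by name (Gad1, Gad2, Slc32a1, Slc6a11, Abat, Aldh5a1 and Slc38a1), and all 7 were found among the 37620 genes of the count files and passed the filter on low counts. The mice were PV-Cre:Rpl22HA f/f mice of 2 months, in which a hemagglutinin tag on the ribosomal protein Rpl22 is switched on by Cre under the control of the parvalbumin gene, so that ribosomes can be pulled down with the mRNAs they carry. All mice received a lentivirus in DG and were studied 2 weeks later: 5 samples came from mice given a non-target shRNA (shNT) and 4 samples from mice given an shRNA against Ablim3 (shRNA), a brake on the contacts of DG mossy fibers with PV INs. Each sample pooled the CA2/CA3 tissue of 6 male and female mice. The comparison of shRNA with shNT asks which transcripts of PV INs change when mossy fiber input to these cells is raised.

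GABA is the main inhibitory transmitter of the adult brain, and PV INs release it onto the cell bodies of pyramidal neurons. Neurons make it from glutamate with the glutamate decarboxylases GAD67 (Gad1), which supplies most of the cell's GABA, and GAD65 (Gad2), which is attached to vesicles and active on demand. The vesicular transporter VGAT (Slc32a1) loads GABA into vesicles with the help of a proton pump. After release GABA is taken up by transporters, of which GAT-3 (Slc6a11) is mainly an astrocyte protein, and is broken down in mitochondria by GABA transaminase (Abat) and succinic semialdehyde dehydrogenase (Aldh5a1). The glutamine transporter SNAT1 (Slc38a1) brings in glutamine, from which new glutamate is made.

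Gene counts summed to 18281719 in the shallowest sample and to 34578837 in the deepest. Pvalb had 678 to 1375 CPM in the shNT samples and 310.0 to 705 CPM in the shRNA samples. CPM are counts relative to the library size, normalised by TMM. The log2 fold change of Pvalb was -0.92 (FDR = 0.0678, QL test in edgeR). The defining transcript of PV INs was thus present in every sample, and so were markers of other cells. No input RNA is among the 9 samples, so enrichment over the tissue was not measured. Ablim3, whose knockdown was made in DG and not in the cells sequenced, had 12.1 to 22.6 CPM with shNT and 13.7 to 21.7 CPM with shRNA (log2 fold change 0.13, FDR = 0.701, QL test in edgeR). In 3 samples more reads lay outside exons than in the rest. Reads outside annotated exons made up 18.6% of the uniquely aligned reads of shNT replicate 2 and 27.2% of those of shRNA replicate 4, and shRNA replicate 1 had 19.8%, against 9.76% to 12.5% in the other 6 samples. Results are given with and without shNT replicate 2 and shRNA replicate 4, the sample of each group with the highest share.

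Gad1 and Gad2 encode related enzymes, and their counts can be compared only if short reads tell them apart. The longest stretch of identical coding sequence was 17 bases, below the read length of 50 bases, and no 50-base window was common to both genes. This stretch is shown here with 15 bases on each side, the shared bases in capitals, on the plus strand of mm9 at chr2:70431496-70431542 for Gad1 and chr2:22529471-22529517 for Gad2.
Gad1: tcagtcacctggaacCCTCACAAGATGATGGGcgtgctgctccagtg
Gad2: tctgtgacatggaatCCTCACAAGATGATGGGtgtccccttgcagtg
Of the 4782 windows of 50 bases in the coding transcripts of Gad1, 121 (2.53%) also lie in its annotated copy Gad1-ps, and reads from these windows may not align uniquely. Slc32a1, Slc6a11, Aldh5a1 and Slc38a1 shared no such window with another coding gene, and Gad2 shared 44 of 5695. In Abat 2266 of 5376 windows (42.2%) are also part of Gm9851, a gene annotated on the other strand of the same place. Counting took no account of strand, Gm9851 had a count of 0 in all 9 samples, and its exons cover 29.9% of the exon bases of Abat. In the same way Gm14205 covers 24.8% of the exon bases of Slc32a1 and had a count of 0. Reads in these overlaps are ambiguous between the genes, so the levels of Abat and Slc32a1 can leave out reads from these exon bases in every sample. In Aldh5a1 10.7% of exon bases overlap genes annotated on the other strand.

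The sequences just upstream of 4 of the genes are shown for the synthesis and loading genes, which varied together over the samples as Aldh5a1 and Slc38a1 did with them, and for Slc6a11, which did not. The promoter of Aldh5a1 (57.2% GC, none of the motifs below) is not printed. They are the 250 bases before the annotated start, read 5′ to 3′ on the plus strand, from RefSeq (build GRCm38.p6), at chr2:70561879-70562128 for Gad1, chr2:22622077-22622326 for Gad2, chr2:158610508-158610757 for Slc32a1 and chr6:114130991-114131240 for Slc6a11. The capitals mark GGGCGG (GC box) and TATAAA, on either strand.
Gad1: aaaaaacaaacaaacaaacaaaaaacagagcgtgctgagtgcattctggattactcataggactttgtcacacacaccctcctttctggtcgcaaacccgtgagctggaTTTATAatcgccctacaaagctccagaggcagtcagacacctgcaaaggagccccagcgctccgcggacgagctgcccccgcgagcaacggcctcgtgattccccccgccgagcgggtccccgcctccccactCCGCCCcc
Gad2: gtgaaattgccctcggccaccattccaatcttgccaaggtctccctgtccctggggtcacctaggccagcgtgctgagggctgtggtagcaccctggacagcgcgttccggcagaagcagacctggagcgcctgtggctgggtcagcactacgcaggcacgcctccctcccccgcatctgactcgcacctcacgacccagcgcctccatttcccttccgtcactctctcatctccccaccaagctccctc
Slc32a1: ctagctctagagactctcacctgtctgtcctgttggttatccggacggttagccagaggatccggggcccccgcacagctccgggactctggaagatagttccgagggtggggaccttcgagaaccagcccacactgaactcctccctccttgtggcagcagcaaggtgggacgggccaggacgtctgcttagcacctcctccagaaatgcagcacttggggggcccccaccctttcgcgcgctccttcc
Slc6a11: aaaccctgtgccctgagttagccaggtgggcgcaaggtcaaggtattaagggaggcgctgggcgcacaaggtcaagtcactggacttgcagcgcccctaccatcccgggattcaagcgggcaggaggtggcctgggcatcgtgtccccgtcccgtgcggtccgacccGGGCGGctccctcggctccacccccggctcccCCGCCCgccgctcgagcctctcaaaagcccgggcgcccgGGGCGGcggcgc
Slc6a11 held 3 GC boxes and Gad1 held 1, while Gad2 and Slc32a1 held none. Of 32851 promoters of the same length 32.7% held a GC box. TATAAA was found in Gad1 and in 12.4% of all promoters. TGACGTCA, TAATTA and CACGTG, searched on both strands, were in none of the 4 sequences and in 1.55%, 4.84% and 6.02% of all promoters. No motif searched overlapped another in these sequences. GC made up 58.0% of the bases for Gad1, 64.0% for Gad2, 62.4% for Slc32a1 and 71.2% for Slc6a11, against a median of 52.4% over all promoters.

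In the shNT samples the synthesis enzyme Gad1 was the most abundant of the 7 transcripts per kb of exon. Its level was 397 ± 100.3 CPM per kb (SD, n = 5), which ranked 103 among the 15047 genes tested whose exon length is known. Slc32a1 followed with 93.3 ± 21.1 CPM per kb and rank 730.0, then Gad2 with 57.1 ± 11.8 CPM per kb and rank 1240.0. Abat had 54.1 ± 19.4 CPM per kb and Slc38a1 46.2 ± 9.33 CPM per kb. Aldh5a1 had 22.02 ± 4.68 CPM per kb, and Slc6a11 came last with 3.11 ± 0.846 CPM per kb and rank 8693. Gad1 lay 6.95-fold above Gad2 on this scale and was higher in all 9 samples. The ranges of Slc32a1, Gad2, Abat and Slc38a1 overlapped from one neighbour to the next, whereas Gad1, Aldh5a1 and Slc6a11 each lay apart from the gene above or below them. Slc32a1 was nonetheless above Gad2 within each of the 9 samples, and Gad2 was above Abat in 4 of 5 shNT samples and in 1 of 4 shRNA samples. When only exon bases free of overlap with another gene were used as the length, Abat (-2.36 on the log2 scale relative to Gad1) moved above Gad2 (-2.80).

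Of the 7 genes, 0 were called in the shRNA samples in either direction with the threshold set at 1.5-fold and FDR 0.05, against 1.75% of all 15069 genes tested (quasi-likelihood test of edgeR, QL test below, with Benjamini-Hochberg adjustment). At an unadjusted p under 0.05, Slc6a11 alone passed, against 34.1% of all genes. In 0 of the 7 were the groups free of overlap, against 15.6% of all genes (8.97% higher and 6.68% lower). The log2 fold changes of the 6 genes other than Slc6a11 lay between -0.45 and -0.0043, and Slc6a11 had 1.87. The median over the 7 was -0.24, and over all genes tested it was 0.11.

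**Figure D1:**
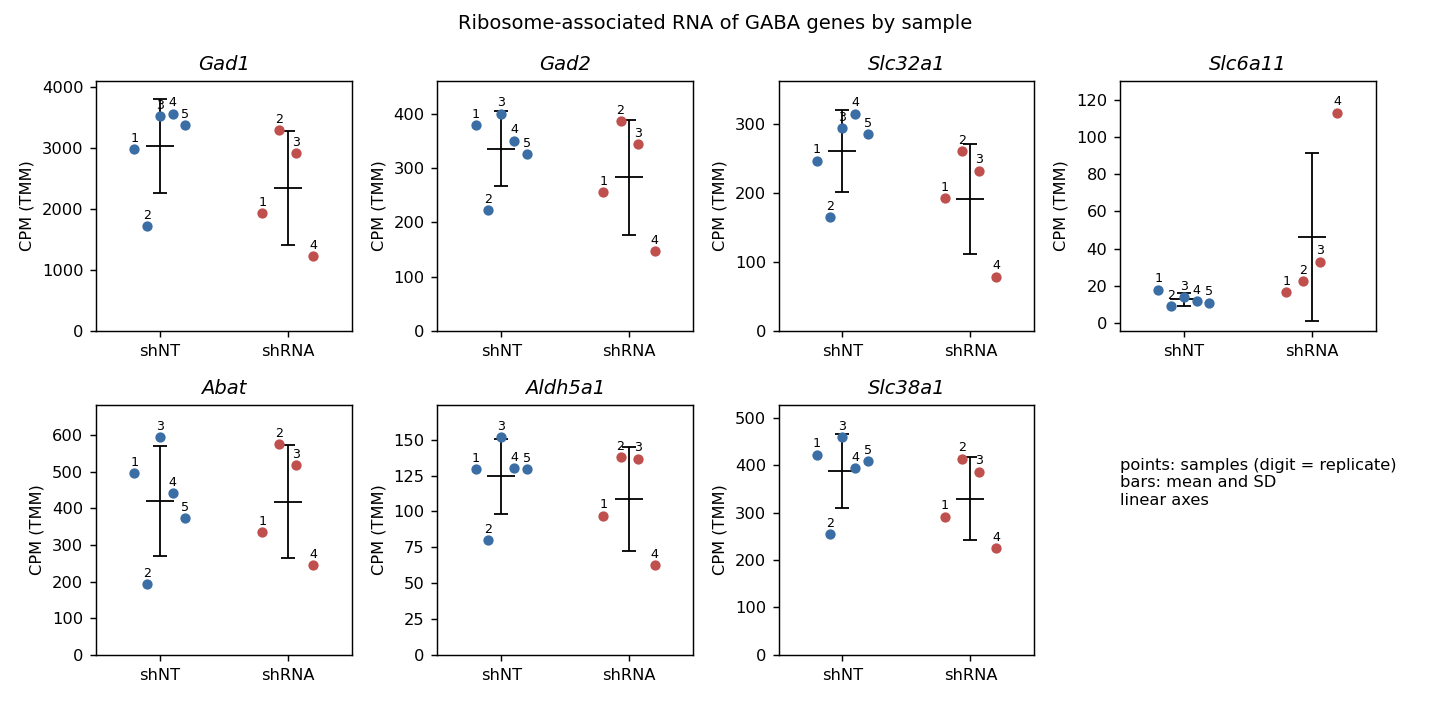
Level of each of the 7 genes in CPM (TMM, linear axes) by sample, with shNT in blue and shRNA in red; the digit is the replicate, and bars give the mean and SD. In 6 genes shNT replicate 2 and shRNA replicates 1 and 4 lie lowest, and in Slc6a11 shRNA replicate 4 lies at 113 CPM, far above the rest.

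Gad1 (ENSMUSG00000070880, mm9 chr2:70391129-70440071) had 2981, 1722, 3517, 3557 and 3374 CPM in the 5 shNT samples, in the order of their replicates. In the 4 shRNA samples it had 1932, 3294, 2911 and 1229 CPM. The groups overlapped, with shNT replicate 2 and shRNA replicates 1 and 4 well below the other samples of both groups. The shNT mean was 3030.3 ± 766 CPM (SD, n = 5), and the shRNA mean was 2341 ± 938 CPM (SD, n = 4). The log2 fold change of -0.37 (FDR = 0.404 by the QL test in edgeR, standard error 0.31) had a 95% interval from -1.06 to 0.31.

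Gad2 (ENSMUSG00000026787, mm9 chr2:22477725-22549394) had 379, 223, 399.9, 350.5 and 325 CPM in shNT replicates 1 to 5. In shRNA replicates 1 to 4 it had 255, 386, 343 and 148 CPM. Again the lowest values were those of shRNA replicate 4, shNT replicate 2 and shRNA replicate 1. The log2 fold change was -0.25 (FDR = 0.527 by the QL test in edgeR, standard error 0.27), with an interval from -0.84 to 0.35.

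Slc32a1 (ENSMUSG00000037771, mm9 chr2:158436494-158441484), the vesicular GABA transporter, had 247, 165, 295, 315 and 285 CPM in the shNT samples in the order of their replicates. In the shRNA samples it had 193, 261, 233 and 79.2 CPM. The groups overlapped, and shRNA replicate 4 had less than every other sample. Its log2 fold change of -0.45 (FDR = 0.310 by the QL test in edgeR, standard error 0.31) was the lowest of the 7, with an interval from -1.13 to 0.23.

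The breakdown enzymes and the glutamine transporter were lowest in the same 3 samples. Abat (ENSMUSG00000057880, mm9 chr16:8513522-8621661) had 495, 192, 593, 441 and 373 CPM in the shNT samples and 334, 575, 517 and 245 CPM in the shRNA samples. Its means were close to each other, at 419 ± 150.2 CPM (SD, n = 5) and 418 ± 154 CPM (SD, n = 4), and the log2 fold change was -0.0043 with an interval from -0.72 to 0.71 (FDR = 0.994, QL test in edgeR). Aldh5a1 (ENSMUSG00000035936, mm9 chr13:24999448-25029530) ran from 80.2 to 152 CPM with shNT and from 62.5 to 138 CPM with shRNA. Its log2 fold change was -0.20 (FDR = 0.586, QL test in edgeR), with an interval from -0.74 to 0.35. Slc38a1 (ENSMUSG00000023169, mm9 chr15:96401849-96473344) ran from 254 to 459 CPM with shNT and from 225 to 414 CPM with shRNA. Its log2 fold change was -0.24 (FDR = 0.465, QL test in edgeR), with an interval from -0.73 to 0.26. In all of these the groups overlapped.

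**Figure D2:**
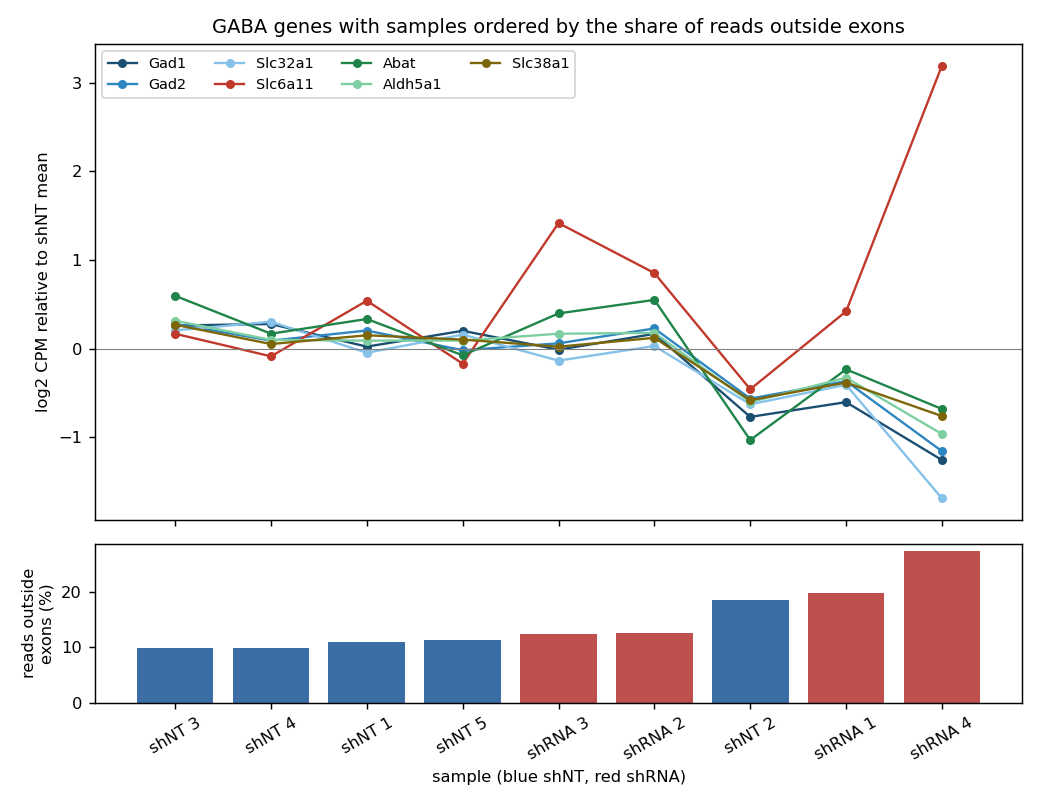
Above, log2 CPM of each gene relative to its mean over the shNT samples, with samples in the order of their share of reads outside exons; below, that share in percent (blue shNT, red shRNA; lines join the values of a gene). The 6 genes other than Slc6a11 are lowest in the 3 samples on the right, whose share is 18.6% to 27.2%.

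In each of the 6 genes other than Slc6a11, all of the 3 samples with the most reads outside exons lay below all of the other 6 samples. Gad1 had 1229 to 1932 CPM in the former and 2911 to 3557 CPM in the latter. Abat, with the narrowest gap in proportion, had 192 to 334 CPM and 373 to 593 CPM. The same order of samples was found in 10.9% of all genes tested. The mean level of 12 PV IN markers, as log2 CPM relative to the shNT mean, was -0.41 in shNT replicate 2, -0.28 in shRNA replicate 1 and -0.998 in shRNA replicate 4, and -0.094 to 0.20 in the other samples. Single markers of the list differed from this mean. Pvalb had 1106 CPM in shNT replicate 2, inside the range of the other shNT samples. It had 705 CPM in shRNA replicate 1, the highest of the shRNA samples, and 310.0 CPM in shRNA replicate 4, the lowest of all. Nuclear-retained noncoding RNAs had levels of 1.61, 1.63 and 2.29 in the same 3 samples and -0.79 to 0.24 in the others. The part of these measures in the levels of the GABA genes was not tested. In bulk samples fewer PV INs, less RNA per PV IN and more RNA from other sources cannot be told apart. With the share of reads outside exons in the fit as a covariate, all 6 genes took a positive log2 fold change, from 0.067 for Slc32a1 to 0.58 for Abat, and 0 of them were called (QL test in edgeR; Abat FDR = 0.111, unadjusted p = 0.0141). The share was tied to the group, so this fit cannot fully separate them. It was 12.4% to 27.2% in the shRNA samples, and 9.76% to 11.3% in the shNT samples other than replicate 2. With an offset for exon length instead, all 6 were negative, from -0.79 for Gad1 to -0.40 for Abat, and 0 were called (QL test in edgeR). Without shNT replicate 2 and shRNA replicate 4 the log2 fold change was -0.30 for Gad1, -0.14 for Gad2 and -0.31 for Slc32a1 (QL test in edgeR). In this fit 0 of the 7 genes were called. It kept shRNA replicate 1, which had 19.8% of its reads outside exons and 1932 CPM of Gad1.

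**Figure D3:**
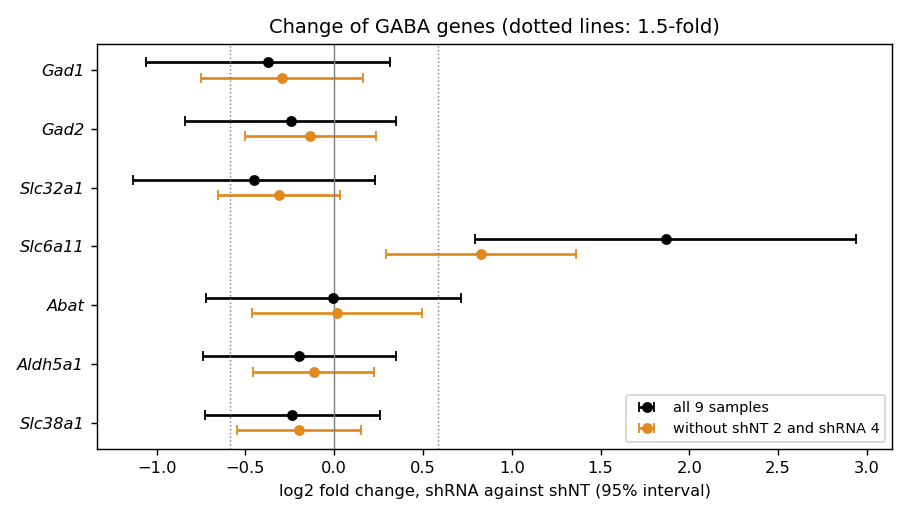
Log2 fold change of each gene, shRNA against shNT, with its 95% interval, in all 9 samples (black) and without shNT replicate 2 and shRNA replicate 4 (orange); dotted lines mark 1.5-fold. The interval of Slc6a11 lies above 0 in both fits, at 1.87 and 0.83, and the intervals of the other genes include 0.

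Slc6a11 (ENSMUSG00000030307, mm9 chr6:114081235-114199880), which takes up GABA mainly into astrocytes, went the other way. The shNT samples had 17.96, 8.95, 13.9, 11.6 and 10.9 CPM of it, and the shRNA samples 16.5, 22.3, 33.0 and 113 CPM. shRNA replicate 1 lay below shNT replicate 1, so the groups overlapped, and shRNA replicate 4 had over 3 times the level of any other sample. On average shNT samples had 12.7 ± 3.44 CPM (SD, n = 5), whereas shRNA samples had 46.3 ± 45.1 CPM (SD, n = 4). The log2 fold change was 1.87 (standard error 0.49, interval 0.79 to 2.94) and the FDR of 0.0621 missed the threshold (QL test in edgeR). Slc6a11 was called by DESeq2 (FDR = 0.00297) and by the likelihood ratio test of edgeR (FDR = 0.00473). Those tests called 1519 and 1688 of all 15069 genes higher. Without shRNA replicate 4 the log2 fold change was 0.91 (FDR = 0.0974, QL test in edgeR). Sample names fall into 2 sets, 31 and 32, and shRNA replicate 4 is the only shRNA sample of set 32. Within set 31 (3 against 3) the log2 fold change was 0.79 (FDR = 0.480, QL test in edgeR). Per kb of exon, Slc6a11 reached 27.8 CPM per kb in shRNA replicate 4, above Gad2 (25.1 CPM per kb) and below Slc32a1 (28.2 CPM per kb), whereas it stayed between 2.20 and 8.12 CPM per kb in the other 8 samples. The value of Slc32a1 can be too low, since 24.8% of its exon bases overlap another gene.

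Astrocyte markers moved with Slc6a11. Of 12 astrocyte markers, 12 had a positive log2 fold change, with a median of 1.35, and 10 were higher at an unadjusted p under 0.05 (20.7% of all genes), although 0 were called (QL test in edgeR). Their summed level was 884 to 1103 CPM in the shNT samples and 1056 to 3762 CPM in the shRNA samples, and none of them was at 0. The mean level of the list relative to the shNT mean was 0.36, 0.30, 0.55 and 2.34 in shRNA replicates 1 to 4, the highest again in replicate 4. Many reads also lay outside exons in shNT replicate 2 and shRNA replicate 1. In shNT replicate 2 astrocyte markers were at -0.036 and Slc6a11 had 8.95 CPM, its lowest level of all samples. In shRNA replicate 1 they were at 0.36 and Slc6a11 had 16.5 CPM. A positive log2 fold change, found in 8732 of all 15069 genes, was also that of 8 of 8 markers of oligodendrocytes, 5 of 6 of their precursors, 10 of 10 of CA3 and CA2 pyramidal cells, 7 of 8 of granule cells, 5 of 8 of microglia, 4 of 9 of other interneurons and 2 of 12 of PV INs. For endothelium it was 7 of 8, but the mean level of that list was below the shNT mean in shRNA replicates 1 to 3 (-0.44, -1.45 and -0.51) and at 2.29 in replicate 4. The part of RNA from other cells in the level of Slc6a11 was not tested.

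Ratios between the genes inside a sample do not depend on how samples are scaled to each other, and 5 were compared. The log2 ratio of Gad2 to Gad1 was -3.16 ± 0.20 with shNT (SD, n = 5) and -3.04 ± 0.081 with shRNA (SD, n = 4; exact two-sided permutation test, p = 0.349). The log2 ratio of Slc32a1 to Gad1 was -3.52 ± 0.087 and -3.65 ± 0.26 (exact permutation test, p = 0.349). In both ratios the groups overlapped.

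How many of all genes separate the groups in a ratio to Gad1 was not computed, for Abat here or for Slc6a11 below. In CPM, the groups were free of overlap in 15.6% of all genes. Abat was higher relative to Gad1 in the shRNA samples. The log2 fold change of Abat itself was -0.0043 and that of Gad1 was -0.37, with neither called (QL test in edgeR). The part of RNA from other cells in this ratio was not tested. The log2 ratio was -2.59, -3.16, -2.57, -3.01 and -3.18 in shNT replicates 1 to 5 and -2.53, -2.52, -2.49 and -2.33 in shRNA replicates 1 to 4. The groups did not overlap, though shNT replicates 1 and 3 came within 0.1 of the nearest shRNA sample. The difference of the means was 0.43 (exact two-sided permutation test, p = 0.0159, the smallest possible with 5 against 4, adjusted p = 0.0397 by Benjamini-Hochberg over the 5 ratios). Without any single sample it lay between 0.37 and 0.52, and adjusted p between 0.0595 and 0.0893 (exact permutation test), above the threshold in every case. With any sample left out, p was the smallest that the remaining samples allow (0.0286 for 4 against 4 and 0.0357 for 5 against 3, exact permutation test), so the loss of the call says nothing about the stability of the difference. Within the 6 samples whose names hold the number 31, the meaning of which the labels do not give (3 against 3), it was 0.26 (exact permutation test, p = 0.1, the smallest that this size allows).

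The log2 ratio of Slc6a11 to Gad1 was -7.90 ± 0.40 with shNT (SD, n = 5) and -5.99 ± 1.73 with shRNA (SD, n = 4), without overlap. The difference was 1.90 (exact permutation test, p = 0.0159, adjusted p = 0.0397), and it was 1.05 without shRNA replicate 4 (adjusted p = 0.0893, exact permutation test, with p again at its smallest). Gad1 relative to Pvalb differed by 0.51 between the groups (exact permutation test, p = 0.238). This ratio varied more among the shNT samples than the other ratios did, from 0.64 in shNT replicate 2 to 2.24 in shNT replicate 3.

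**Figure D4:**
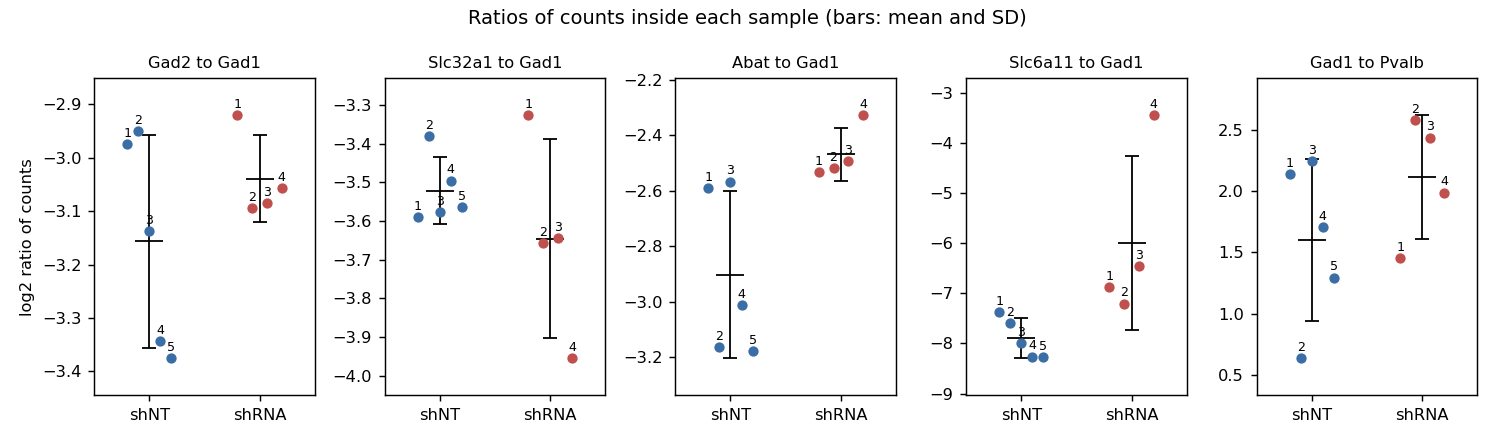
Log2 ratio of the counts of a pair of genes inside each sample (blue shNT, red shRNA; the digit is the replicate; bars give the mean and SD). The shRNA samples lie above all shNT samples for Abat to Gad1 and Slc6a11 to Gad1, and the groups overlap in the other ratios.

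Other genes of the pathway came from 5 lists with 45 genes, of which 44 were tested. In the shRNA samples 0 were called higher, against 1.74% of all genes tested, and 0 lower, against 0.0133% (QL test in edgeR). At an unadjusted p under 0.05, 5 were higher, against 20.7% of all genes, and 13 lower, against 13.4%.

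The proton pump that drives vesicle loading was the list with the most genes on the lower side. Of its 16 subunits and accessory proteins 15 had a negative log2 fold change, with a median of -0.39. In 6 of the 16 the shRNA samples were all below the lowest shNT sample, against 6.68% of all genes. Atp6v1g1, a subunit of the stalk, had 124, 205, 132, 191 and 238 CPM in the shNT samples and 115, 110.1, 96.1 and 95.3 CPM in the shRNA samples. All shRNA samples were lower, with shNT replicates 1 and 3 the nearest to them, and the log2 fold change of -0.78 had an FDR of 0.0621 (QL test in edgeR). Atp6v1f had a log2 fold change of -0.71 and Atp6v1g2 of -0.60, with FDR of 0.0679 and 0.0812, and the abundant Atp6v1b2 had -0.26 (FDR = 0.367, QL test in edgeR). Without shNT replicate 2 and shRNA replicate 4, 15 of the 16 were still negative, with a median of -0.31. That fit kept shNT replicates 4 and 5. The mean level of the list, as log2 CPM relative to the shNT mean, was highest there (0.16 and 0.29). These samples and shRNA replicate 4 (-0.88, the lowest) make up name set 32. In the other name set the levels were -0.21, -0.24 and -0.0077 with shNT and -0.35, -0.17 and -0.26 with shRNA. There the groups overlapped. The part of the name set in the change of the list was not tested.

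Pyridoxal phosphate is the cofactor of both decarboxylases and of Abat. Pdxp, which removes its phosphate, had a log2 fold change of -0.50 (FDR = 0.0729) without overlap between the groups, and the kinase Pdxk had 0.016 (FDR = 0.964, QL test in edgeR).

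Genes that supply glutamate and glutamine were mixed: 7 of 12 had a positive log2 fold change, with a median of 0.25, and 6 of 12 without shNT replicate 2 and shRNA replicate 4, with a median of 0.0073. The glutamate transporters Slc1a2 and Slc1a3, which are mainly astrocyte genes, had 1.29 (FDR = 0.0734) and 1.65 (FDR = 0.0686, QL test in edgeR). Slc1a3 had 133, 152, 199.6 and 882 CPM in shRNA replicates 1 to 4 and 88.6 to 149 CPM in the shNT samples. As in Slc6a11, shRNA replicate 4 was far above the other samples. Got1, an aminotransferase that was the most abundant gene of the list, had -0.50 (FDR = 0.219, QL test in edgeR).

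A list of enzymes around GABA breakdown and around succinate in the citric acid cycle was mostly negative, 9 of 11, with a median of -0.35. The mean level of this list was also highest in shNT replicates 4 and 5 (0.087 and 0.17) and lowest in shRNA replicate 4 (-0.52). In the other name set it was -0.059, -0.19 and -0.012 with shNT and -0.21, -0.093 and -0.11 with shRNA, with overlap. The succinate dehydrogenase subunits Sdhc and Sdhd had log2 fold changes of -0.62 (FDR = 0.0736) and -0.56 (FDR = 0.0708), and the catalytic subunit Sdha had -0.19 (FDR = 0.514, QL test in edgeR). Sucla2, a subunit of succinyl-CoA ligase, had -0.39 (FDR = 0.169, QL test in edgeR). Of the other transporters, Slc6a6, which carries taurine, had a log2 fold change of 0.35 (FDR = 0.365, QL test in edgeR), Slc6a13 had less than 2 CPM in the mean of either group and Slc6a12 did not pass the filter.

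**Figure D5:**
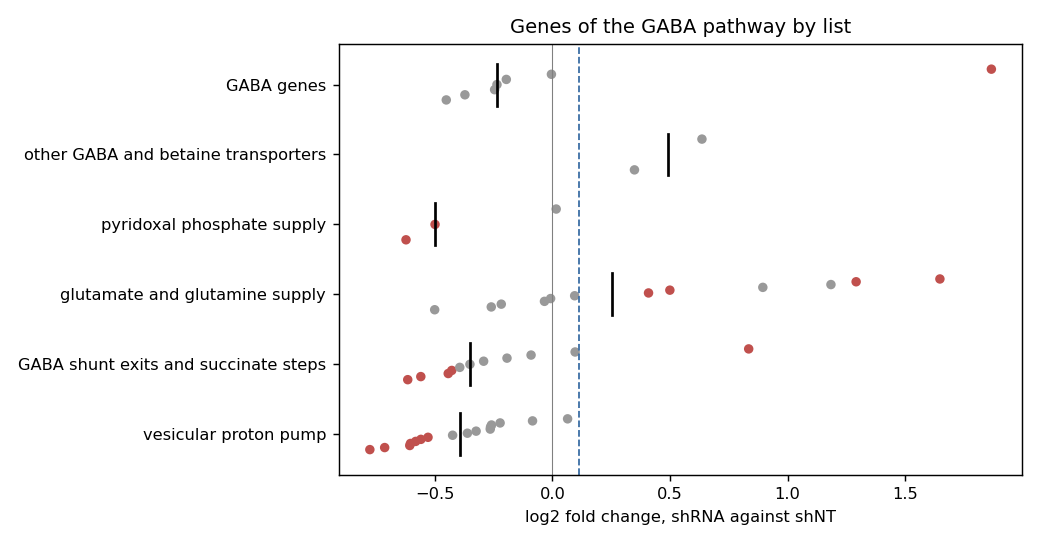
Log2 fold change of each gene of the GABA pathway, shRNA against shNT, by list; red points have an unadjusted p under 0.05, black bars are medians of the lists, and the dashed line is the median of all genes tested (0.11). Proton pump genes lie mostly below 0, with a median of -0.39, and Slc6a11 is the point at 1.87 among the GABA genes.

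The genes whose levels followed those of the GABA genes most closely were found by Pearson's r of log2 CPM over the 9 samples, among 9495 genes of at least 10 CPM, as a description only. For Gad1 they were Alg2, Glrb, Wwox, Tspyl4 and Ugcg, with r from 0.993 to 0.996. Glrb encodes the beta subunit of the glycine receptor. For Slc32a1 they were Lrp11, Atp5b, Hapln4, Eno2 and Snap47 (r from 0.995 to 0.998), among them a link protein of perineuronal nets (Hapln4) and neuronal enolase (Eno2). For Slc6a11 they were Fads2, Bhlhe40, Igdcc4, Ptplb and Bmpr1a (r from 0.987 to 0.996). Among the GABA genes themselves r with Gad1 was 0.9749 for Aldh5a1, 0.974 for Slc38a1, 0.961 for Gad2, 0.958 for Slc32a1, 0.837 for Abat and -0.547 for Slc6a11. All these values share the same 9 libraries and their depth.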

How the data were processed

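Ribosome-associated RNA was sequenced as 50-base reads in 5 shNT and 4 shRNA samples. The authors aligned reads with STAR to mm9, used HTSeq 0.6.0 without strand to count them on genes, and deposited raw counts per sample; the annotation is not given in the sources used here. Names, positions and exon lengths came from GENCODE M1 on the same build, which named 37205 of 37620 identifiers.

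Counts were analysed with edgeR 4.0.16 in R 4.3.3 (limma 3.58.1, DESeq2 1.42.0). The 15069 genes that reached 1 CPM in any sample were normalised with TMM and tested with the quasi-likelihood test at its default setting, without covariates. Calls needed an FDR under 0.05 over all genes tested and a change of at least 1.5-fold. Log2 levels used a prior count of 2. Ratios of counts were compared by exact permutation tests with 126 assignments of the group labels (scipy 1.17.1). Reads outside exons, between 9.76% and 27.2% of uniquely aligned reads, stayed out of library sizes. On simulated counts with 200 genes changed 2-fold, the test called 97 of them in the right direction and 2 unchanged genes of 14577 tested, so changes of this size are often missed. Each value rests on the depth of its sample, and replicates differed beyond sampling noise.

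The 7 genes, the pathway lists and the marker lists were chosen with earlier results of these data known. Named pathway genes were those called and, where none was, the 2 most abundant and the 2 with the largest change in each list among genes averaging at least 10 CPM; Slc6a13 and Slc6a12 were named after their values were seen. A gene that the rule names is not reported here. Alternatives changed the test, normalisation, filter, covariates, gene length and samples. The version 4 quasi-likelihood method and the length without overlaps were added after seeing the data.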

Additional observations from a re-analysis of the deposited data

Results flagged for a closer look

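Dixon's test at the 95% level was run on 56 sets of values of a group and set 4 values apart, all from 2 samples, where about 2.8 would arise by chance. shRNA replicate 4 had 113 CPM of Slc6a11 against 16.5 to 33.0 CPM in the other shRNA samples. It also had an astrocyte marker level of 2.34, against 0.30 to 0.55. shNT replicate 2 had a PV IN marker level of -0.41, against 0.033 to 0.20 in the other shNT samples, and 18.6% of its reads lay outside exons, against 9.76% to 11.3%.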

How the results depend on the processing

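Of the 7 GABA genes, 1 (Slc6a11) was called higher with edgeR's likelihood ratio and exact tests, DESeq2, limma voom and no filter on low counts, and 0 to 1 when single samples were dropped (called without shNT replicate 1); 0 were called lower under every alternative run. The log2 fold change of Slc6a11 stayed positive throughout, between 0.79 and 2.10. With the covariate for reads outside exons it was 1.02 (FDR = 0.195, unadjusted p = 0.0675, QL test in edgeR). Signs changed for genes that were never called: with the covariate for reads outside exons Gad1 was at 0.15, Gad2 0.20, Slc32a1 0.067, Abat 0.58, Aldh5a1 0.24 and Slc38a1 0.13. Aldh5a1 was at 0.023 with limma voom and 0.014 within name set 31. Abat was at 0.22 with limma voom, 0.025 with library size only, 0.14 within name set 31, 0.014 without both atypical samples, and -0.20 to 0.18 when single samples were dropped. An offset for exon length went the other way (QL test in edgeR). It gave -0.79 for Gad1 (FDR = 0.152, unadjusted p = 0.0392) and -0.69 for Slc38a1 (FDR = 0.106, unadjusted p = 0.0155). Gad2 was at -0.53, Aldh5a1 at -0.47, Slc32a1 at -0.43 and Abat at -0.40.

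Of the 44 other pathway genes, 2, 2, 1 and 2 were called higher with the likelihood ratio test, the exact test, DESeq2 and limma voom. Of all 15069 genes 1688, 1659, 1519 and 2301 were. In the same order 5, 5, 8 and 3 of the 44 were called lower, against 542, 534, 844 and 618 of all genes. With each sample left out 0 of the 44 were called higher and between 0 and 4 lower.

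Over all genes the main counts were 262 higher and 2 lower. The likelihood ratio test gave 1688 and 542, the exact test 1659 and 534, DESeq2 1519 and 844, limma voom 2301 and 618, and no filter 501 and 14. Scaling by library size only, upper quartile scaling, filterByExpr, name set 31 alone, the covariate for reads outside exons and an offset for exon length each gave 0 and 0 (edgeR quasi-likelihood test; 996 to 3071 higher and 497 to 2571 lower genes at an unadjusted p under 0.05). DESeq2 size factors gave 1 lower gene, the name set as a factor 1, and the version 4 quasi-likelihood method 6. Leaving out both atypical samples gave 678 higher genes. Each sample left out gave 0 to 1007 higher and 0 to 410 lower genes. The replicate block gave 29 higher and 0 lower genes (QL test in edgeR; 338 lower at an unadjusted p under 0.05); replicate numbers did not pair the samples, since the correlations of deviations were -0.27, -0.64, 0.49 and -0.18. The cause of these differences was not tested.

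The ratio of Abat to Gad1 differed by 0.32 without both atypical samples and 0.26 within name set 31, and that of Slc6a11 to Gad1 by 1.13 and 0.80, all short of the threshold, with p at the smallest that so few samples allow (0.0571 and 0.1, exact permutation test). Each sample left out gave 0.37 to 0.52 and 1.05 to 2.31. The ratio of Slc32a1 to Gad1 turned to 0.014 without both atypical samples and that of Gad2 to Gad1 to -0.013 within name set 31.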
